A study of Homo sapiens with 9 samples.

Results

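The 10 genes described here handle arsenic in liver cells and were followed across the 9 libraries of a study on HuH-7, an established human hepatocellular carcinoma line. They were taken by symbol: AS3MT, GSTO1, AQP3, AQP9, ABCC1, ABCC2, ABCC3, ABCB1, MAT2A and AHCY. All 10 matched an Ensembl identifier among the 63677 in the count files, and 8 passed the filter on low counts (at least 1 CPM, counts scaled to a common library size, in at least 2 libraries), which 18237 genes passed in all. AS3MT and AQP9 did not pass. The members were chosen with earlier results of these data known.

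Each condition was 1 library of total RNA, depleted of ribosomal RNA and read on an Ion Torrent Proton instrument. A single library came from untreated cells. Acetaminophen (10 mM) was given by itself, with exosomes or with caffeine, and the last 2 agents were also given without it. The caffeine dose was 2 mM, and the exosomes were those of 1 ml of serum per number of cells stated in the label. The other 3 conditions had arsenic, at a dose of 5 µM, at 15 µM, and at the lower dose together with 5 µM copper. The labels name neither the arsenic compound nor how long cells were exposed. No condition was replicated. Ratios between libraries therefore carry a 95% counting interval, which covers counting error alone. The tests take their spread from departures from an additive model in which arsenic is present or absent. Fewer cells and less RNA per cell cannot be told apart in these bulk samples.

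Inorganic arsenic enters hepatocytes partly through aquaglyceroporins, the glycerol-conducting water channels AQP3 and AQP9. Inside the cell it is reduced and methylated by AS3MT, which takes its methyl groups from S-adenosylmethionine. MAT2A makes that donor, and AHCY clears the S-adenosylhomocysteine left behind. GSTO1 can reduce methylated arsenic. Arsenic-glutathione conjugates leave through the pumps ABCC1 (MRP1) and ABCC2 (MRP2, on the bile canalicular side), and ABCC3 (MRP3) and ABCB1 (P-glycoprotein) export other conjugates and drugs on the basolateral and canalicular sides.

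Counts on genes ranged from 658725 (acetaminophen with exosomes) to 8227906 (caffeine), with 951816 in the control. The 10 hepatocyte markers examined, ALB and AFP among them, were above 3 counts in every library and summed to 9355 to 28780 CPM. The 13 markers of other liver cells summed to 12.2 to 25.3 CPM, with PECAM1 at 0 counts throughout. The acetaminophen and arsenic 5 µM libraries stood apart by base composition. In these, a gene's log2 deviation from its average over the 9 libraries went down with GC content (Pearson's r -0.426 and -0.356 across 17741 genes, which are not independent). In the control r was 0.117, and in the other 6 libraries it ran from -0.0851 (exosomes) to 0.267 (arsenic with copper), with 0.266 in acetaminophen with caffeine and 0.186 in arsenic 15 µM. Against log2 exon length, r was lowest in the control (-0.232). It was 0.0957 in arsenic 5 µM, 0.167 in arsenic 15 µM and 0.116 in arsenic with copper. The pumps have the longest exon lengths of the members (5.81 to 9.61 kb), and the part of length alone in their values was not tested. Ratios with the trends of GC content and length removed are therefore given where they change a result. Levels are CPM scaled by the trimmed mean of M-values (TMM), and a gene with 3 counts stands at 0.352 (caffeine) to 3.83 CPM (acetaminophen with exosomes).

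The order of levels, compared per kilobase of exon, was AHCY (median 122 CPM per kb over the 9 libraries), GSTO1 (61.0), MAT2A (40.2), ABCC2 (17.7), ABCB1 (7.91), ABCC3 (2.65), ABCC1 (2.30) and AQP3 (1.64), with AQP9 at a median of 0. AS3MT was left out of this order because of the overlap with another gene described below. Among the first 8 genes, the ranges over libraries of each gene and the next in this order overlapped. The enzymes of the methyl donor cycle and GSTO1 thus stood above the pumps at the median, although single libraries crossed this order.

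**Figure D1:**
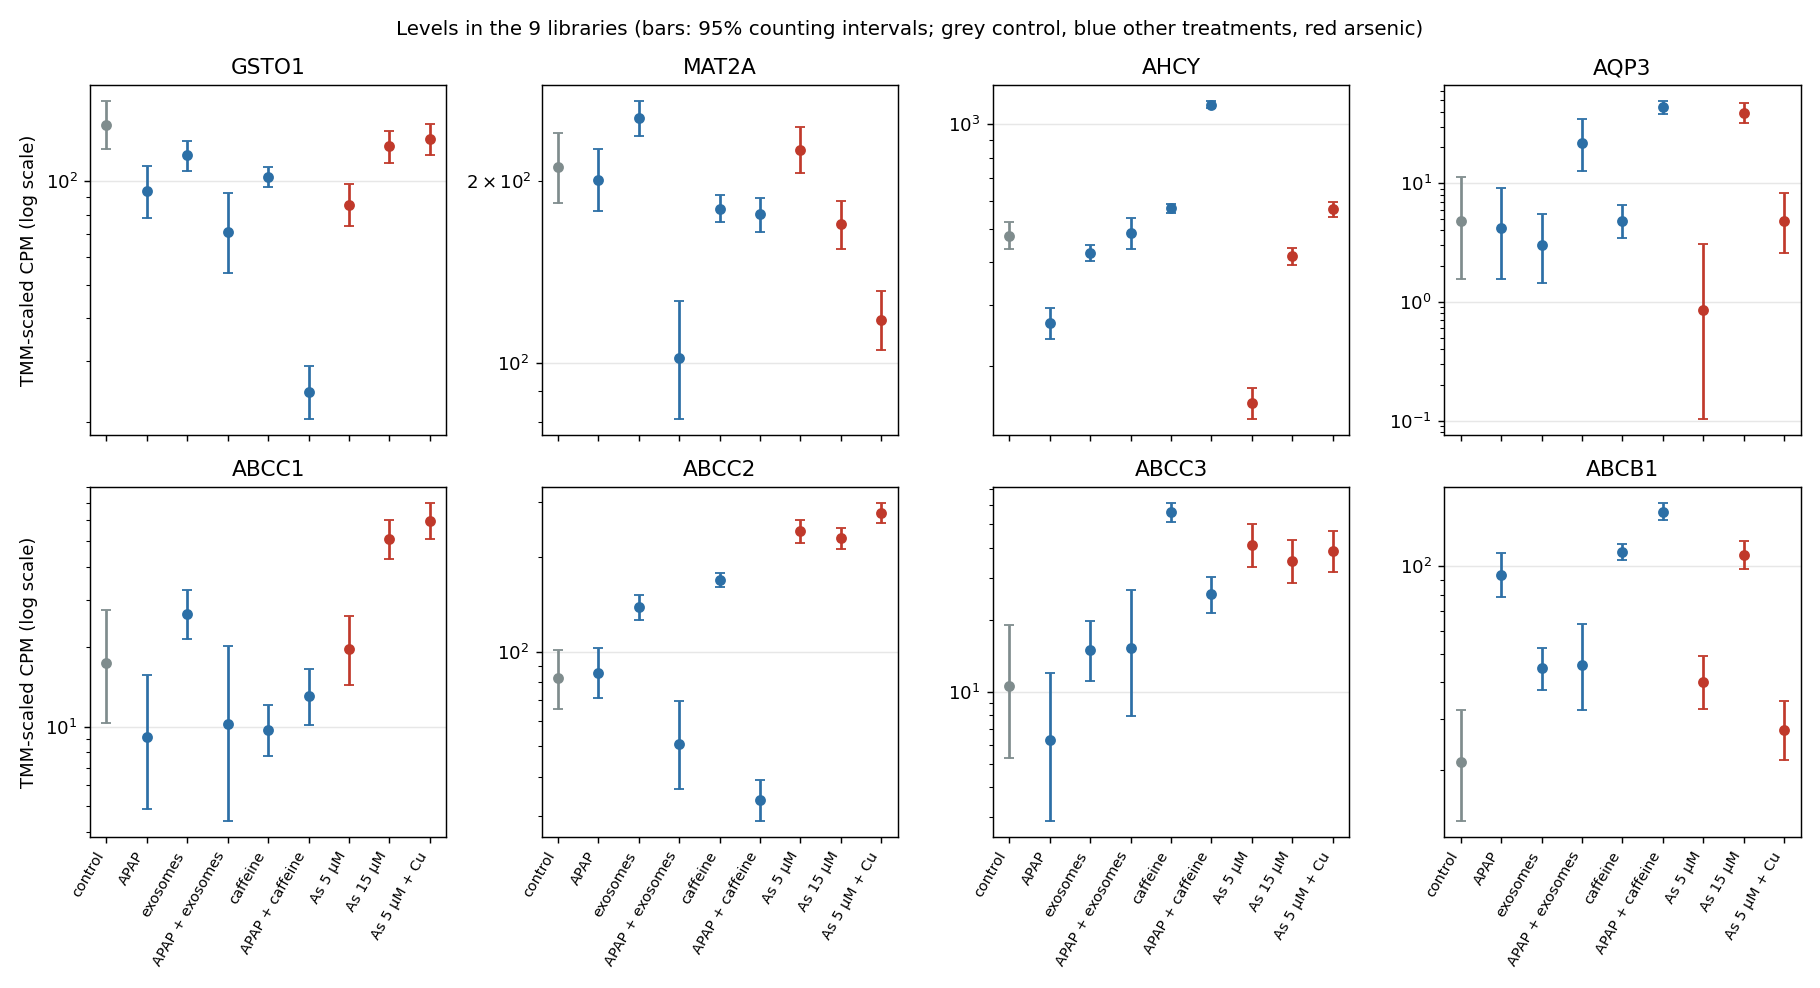
TMM-scaled CPM (log scale) of the 8 members that passed the count filter in each of the 9 libraries (APAP, acetaminophen; As, arsenic; Cu, copper), with 95% counting intervals as bars. ABCC2 had its 3 highest levels in the arsenic libraries (230 to 278 CPM), and AQP3 was above 20 CPM in 3 libraries that do not share a treatment combination.

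In 4 members there was a motif searched for here, in the 250 bases upstream of a start, and these windows are shown because the levels of these genes carry the results below. They come from RefSeq (GRCh38.p14), read on the gene's strand from 5′ to 3′, while the counts were made on GRCh37. The table held 12 windows for 8 members, and ABCC1 and ABCC3 were not analysed here in this respect. Capitals mark matches on either strand to TGACNNNGC (core of the antioxidant response element bound by NRF2), GAANNTTC (paired heat shock units), TGCACNC or TGCGCNC (the A and G forms of the metal response element core). No match overlapped another. The windows are AQP3 at chr9:33447594-33447843 (minus strand), GSTO1 at chr10:104254642-104254891 (plus strand), ABCC2 at chr10:99782390-99782639 (plus strand) and the second listed start of ABCB1 at chr7:87600885-87601134 (minus strand).
AQP3: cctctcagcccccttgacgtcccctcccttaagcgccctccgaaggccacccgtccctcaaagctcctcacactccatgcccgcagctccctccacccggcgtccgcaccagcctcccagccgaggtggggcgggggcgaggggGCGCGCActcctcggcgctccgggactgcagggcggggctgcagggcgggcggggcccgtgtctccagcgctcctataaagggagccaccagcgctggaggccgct
GSTO1: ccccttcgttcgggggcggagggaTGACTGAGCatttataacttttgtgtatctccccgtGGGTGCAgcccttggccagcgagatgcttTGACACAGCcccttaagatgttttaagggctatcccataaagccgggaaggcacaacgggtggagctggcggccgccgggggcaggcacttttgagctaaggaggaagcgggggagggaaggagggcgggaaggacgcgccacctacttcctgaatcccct
ABCC2: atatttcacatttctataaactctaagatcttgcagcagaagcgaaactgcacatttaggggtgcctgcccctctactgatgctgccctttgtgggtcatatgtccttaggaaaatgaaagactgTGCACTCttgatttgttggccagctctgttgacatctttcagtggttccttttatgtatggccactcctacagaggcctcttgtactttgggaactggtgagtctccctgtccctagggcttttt
ABCB1: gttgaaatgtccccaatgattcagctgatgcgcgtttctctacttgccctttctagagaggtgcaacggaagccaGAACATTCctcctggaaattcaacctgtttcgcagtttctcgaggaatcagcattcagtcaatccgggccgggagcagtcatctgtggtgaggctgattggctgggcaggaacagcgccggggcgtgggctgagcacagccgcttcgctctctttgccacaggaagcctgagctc
The AQP3 window, with 73.6% G and C, held 1 match to TGCGCNC that begins 106 bases upstream of the start. GSTO1 held TGACNNNGC at 226 and 161 bases upstream and TGCACNC at 190 bases. ABCC2 held TGCACNC at 125 bases and ABCB1 GAANNTTC at 175 bases. Over all 35116 windows of this length in the table, 10.9% held TGACNNNGC, 5.78% GAANNTTC, 9.87% TGCACNC and 16.8% TGCGCNC. These matches are descriptions of letters, and no binding was measured.

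AS3MT, the arsenic methyltransferase, had 1 count in the caffeine library and none in the other 8. In GENCODE 29, 96.8% of the exon length of AS3MT is shared on the same strand with BORCS7-ASMT, a read-through gene that runs from the neighbour BORCS7 into AS3MT. BORCS7-ASMT has a row of its own in the files and 0 counts in all 9 libraries, while BORCS7 had 5 to 81 counts. Reads that fall in both genes may have been set aside as ambiguous, a class that took 4.74% (arsenic 15 µM) to 18.7% (arsenic 5 µM) of the counts on genes and ambiguous reads together. Low AS3MT expression and reads set aside in this way cannot be told apart here, so nothing is said of the level of AS3MT beyond this count.

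GSTO1, the omega-class glutathione transferase, was highest in the control. Its levels were 146 CPM there, 93.6 with acetaminophen, 119 with exosomes, 71.4 with acetaminophen and exosomes, 103 with caffeine and 24.4 with acetaminophen and caffeine. With arsenic they were 85.3 CPM at 5 µM, 126 at 15 µM and 133 at 5 µM with copper. All treated libraries were thus below the control, the one with acetaminophen and caffeine by the most, and the arsenic libraries lay inside the range of the others. The intervals of arsenic 15 µM (ratio 0.864, 0.712 to 1.05) and arsenic with copper (0.908, 0.749 to 1.11) include no difference from the control. With the GC and length trends removed, arsenic 15 µM (ratio 1.29) and arsenic with copper (1.37) were above the control. Acetaminophen with caffeine stood at 0.236 times the level of caffeine alone (interval 0.195 to 0.285) and at 0.26 times that of acetaminophen alone (0.203 to 0.334). In the additive edgeR model the arsenic coefficient was -0.62 on the log2 scale (SE 0.678, adjusted p 0.839) and the acetaminophen coefficient -1.15 (SE 0.563, adjusted p 0.928), so neither passed.

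MAT2A, which makes S-adenosylmethionine outside the normal adult hepatocyte and in liver tumours, varied least of the 8, by 2.49 times between its lowest and highest library. It stood at 211 CPM in the control, 201 with acetaminophen, 254 with exosomes, 102 with acetaminophen and exosomes, 180 with caffeine and 176 with acetaminophen and caffeine. Arsenic gave 226 CPM at 5 µM, 170 at 15 µM and 118 with copper. The low libraries were acetaminophen with exosomes and arsenic with copper, and the other 7 lay between 170 and 254 CPM. The arsenic coefficient was -0.51 (SE 0.701, edgeR adjusted p 0.887). In GENCODE 29, 12.4% of the exon length of MAT2A overlaps GGCX on the opposite strand, and whether the counting used strand is not stated for these files. GGCX held 2729 counts over the 9 libraries.

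AHCY, S-adenosylhomocysteine hydrolase, was at 477 CPM in the control and at 267 with acetaminophen, 426 with exosomes, 485 with acetaminophen and exosomes, 572 with caffeine and 1140 with acetaminophen and caffeine. In the arsenic libraries it was at 157 CPM at 5 µM, 416 at 15 µM and 569 with copper. Its lowest levels were in acetaminophen and arsenic 5 µM, the libraries short of GC-rich genes, and the longest AHCY transcript has 56.2% G and C. Arsenic 5 µM stood at 0.328 times the control (interval 0.286 to 0.376), and at 0.415 times with the GC and length trends removed. Arsenic 15 µM against 5 µM gave a ratio of 2.66 (2.36 to 2.99), which was 1.88 with the trends removed. The arsenic coefficient was 0.07 (SE 0.743, edgeR adjusted p 0.994), and leaving out acetaminophen, caffeine, acetaminophen with caffeine or arsenic with copper turned its sign.

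A ratio of these enzymes within a library needs no scaling between libraries. Per kilobase, AHCY stood at 2.61 times MAT2A in the control (interval 2.22 to 3.07), 1.53 with acetaminophen, 1.93 with exosomes, 5.47 with acetaminophen and exosomes (4.29 to 7.06), 3.65 with caffeine and 7.45 with acetaminophen and caffeine (6.96 to 7.99). With arsenic it was 0.799 at 5 µM (0.698 to 0.915), 2.82 at 15 µM (2.53 to 3.15) and 5.56 with copper (4.92 to 6.3). MAT2A exceeded AHCY in the arsenic 5 µM library alone. The longest MAT2A transcript has 45.6% G and C against 56.2% for AHCY, and the correlation of levels with GC content differed between libraries. It was -0.356 in arsenic 5 µM and -0.426 in acetaminophen, where the ratio was low. Where the ratio was high it was 0.266 in acetaminophen with caffeine, 0.267 in arsenic with copper and 0.0214 in acetaminophen with exosomes. The part of base composition in the ratio was not tested.

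**Figure D2:**
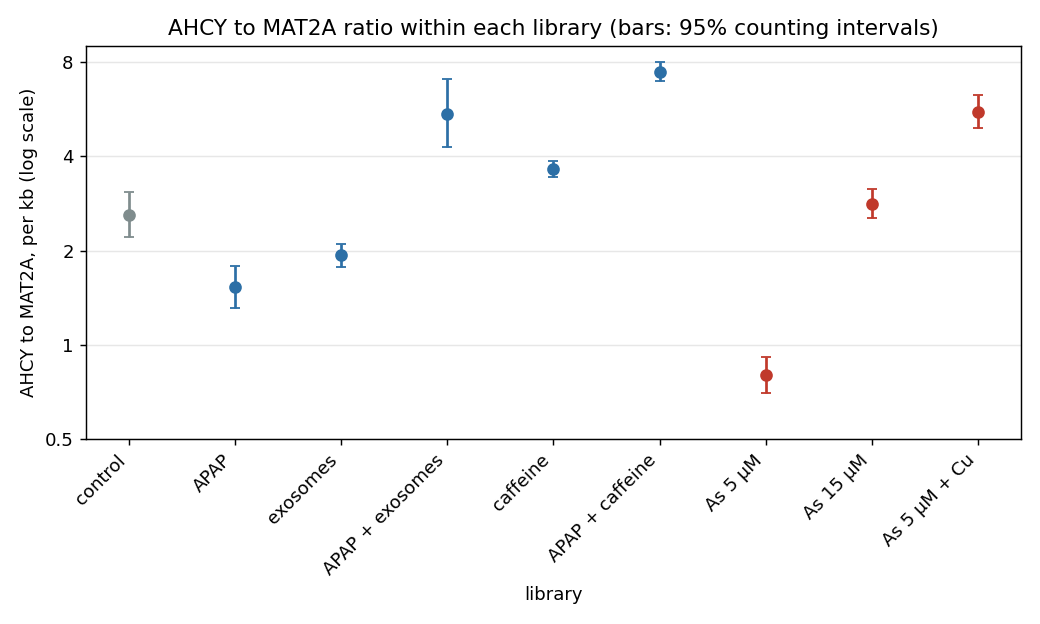
Ratio of AHCY to MAT2A counts per kilobase of exon within each library (log scale), with 95% counting intervals as bars. The ratio runs from 0.799 in arsenic 5 µM to 7.45 in acetaminophen with caffeine, with the control at 2.61.

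AQP3, a glycerol and water channel that also passes trivalent arsenic, was low in 6 libraries and high in 3. It was at 4.84 CPM in the control, 4.22 with acetaminophen, 2.99 with exosomes, 21.7 with acetaminophen and exosomes, 4.81 with caffeine and 43.5 with acetaminophen and caffeine. Arsenic gave 0.853 CPM at 5 µM, 39.2 at 15 µM and 4.83 with copper. The high libraries were arsenic 15 µM and the 2 in which acetaminophen was combined with another agent. In counts, the low libraries held 2 (arsenic 5 µM, under the 3-count floor) to 41 (caffeine) and the high ones 17, 230 and 109.

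Arsenic 15 µM stood at 8.1 times the control for AQP3 (interval 3.37 to 25.4) and at 46.0 times arsenic 5 µM (12.4 to 384), or 29.2 times with the GC and length trends removed. Acetaminophen with caffeine stood at 9.04 times caffeine (6.46 to 12.9), and acetaminophen with exosomes at 7.24 times exosomes (3.13 to 17.7). Without another agent the acetaminophen ratio was 0.873 (0.222 to 3.62), or 1.4 with the trends removed. AQP3 was the 1 member called by an edgeR test. The extra term for arsenic 15 µM, which asks whether that library departs from the level shared by the arsenic libraries, was 3.74 on the log2 scale (SE 0.867, adjusted p 0.00507). That term called 1.09% of all genes. The call was lost with DESeq2 (3.86, adjusted p 0.0809) and without the arsenic 5 µM library (3.03, edgeR adjusted p 0.225), where arsenic with copper is the remaining comparison.

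The additive edgeR coefficients of AQP3 were 2.78 for arsenic (SE 1.11, adjusted p 0.362) and 2.22 for acetaminophen (SE 0.902, adjusted p 0.702). Both passed without the arsenic 5 µM library (3.48, edgeR adjusted p 0.0035, and 2.29, edgeR adjusted p 0.0448), and the acetaminophen coefficient also passed over the libraries without arsenic alone (2.31, edgeR adjusted p 0.0214). These settings called more genes in all. Without arsenic 5 µM, 780 of 18117 genes passed for arsenic, against 90 of 18237 in the main model. For acetaminophen 179 passed there, against 4, and 249 of 17393 over the libraries without arsenic. Without arsenic 15 µM the arsenic coefficient of AQP3 was 0.49 (edgeR adjusted p 0.977), so 1 library carried this coefficient. AQP9, the aquaglyceroporin of normal hepatocytes, had 1 count in the acetaminophen with caffeine library and 0 in the other 8, of 28860252 counts on genes in all. A count of 0 allows up to 0.352 CPM in the deepest library and 3.83 CPM in the shallowest.

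ABCC2, the canalicular conjugate pump, was the most abundant pump per kilobase in 6 libraries. It stood at 82.2 CPM in the control, 85.9 with acetaminophen, 139 with exosomes, 51.0 with acetaminophen and exosomes, 170 with caffeine and 33.6 with acetaminophen and caffeine. The arsenic libraries had 243 CPM at 5 µM, 230 at 15 µM and 278 with copper. All 3 arsenic libraries lay above the other 6, whose range was 33.6 to 170 CPM. Of the 8 members this held for ABCC2 alone, and of all genes tested 3.9% had their 3 arsenic libraries above the rest and 3.14% below, where no member was. The gap was narrow once the GC and length trends were removed. Ratios of ABCC2 to the control were then 2.0 for arsenic 5 µM and 1.96 for caffeine.

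Ratios of ABCC2 to the control were 2.95 at 5 µM (interval 2.35 to 3.75), 2.8 at 15 µM (2.23 to 3.56) and 3.38 with copper (2.69 to 4.28). With the GC and length trends removed they were 2.0 (no longer counted as apart), 2.54 and 3.3. The levels at 5 and 15 µM did not differ beyond counting error (ratio 0.95, 0.847 to 1.07). The additive arsenic coefficient was smaller, at 0.81 (SE 0.776, edgeR adjusted p 0.812), and was -0.34 without the control. The model sets the untreated level from all libraries without arsenic. ABCC2 was lower with acetaminophen on the backgrounds of exosomes (ratio 0.368, 0.26 to 0.509) and caffeine (0.198, 0.168 to 0.231), while without another agent the ratio was 1.04 (0.785 to 1.39), or 0.677 with the trends removed. The acetaminophen coefficient was -1.26 (SE 0.605, edgeR adjusted p 0.909).

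ABCC1, the ubiquitous basolateral homologue, was at 17.4 CPM in the control, 9.15 with acetaminophen, 26.6 with exosomes, 10.2 with acetaminophen and exosomes, 9.74 with caffeine and 13.04 with acetaminophen and caffeine. It was at 19.6 CPM with arsenic 5 µM, 51.1 with 15 µM and 59.8 with copper. The last 2 libraries were the highest of the 9, while arsenic 5 µM lay within the range of the libraries without arsenic. Against the control the ratios were 1.13 (interval 0.641 to 2.06), 2.93 (1.79 to 5.09) and 3.44 (2.11 to 5.94). With the GC and length trends removed they were 1.12, 2.3 and 2.88. The arsenic coefficient was 1.48 (SE 0.762, edgeR adjusted p 0.57).

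ABCC3, the basolateral conjugate pump, was at 10.6 CPM in the control, 6.33 with acetaminophen, 15.0 with exosomes, 15.3 with acetaminophen and exosomes, 56.2 with caffeine and 25.5 with acetaminophen and caffeine. With arsenic its levels were close to one another, 40.9 CPM at 5 µM, 35.2 at 15 µM and 38.7 with copper. Caffeine alone was higher than any arsenic library, and the other 5 libraries were lower than all of them. Ratios to the control were 3.85 (interval 2.06 to 7.96), 3.31 (1.77 to 6.85) and 3.63 (1.95 to 7.5) for arsenic and 5.28 (2.92 to 10.6) for caffeine, where the control had 11 counts. With the GC and length trends removed they were 3.77, 2.37 and 2.91 for arsenic and 5.22 for caffeine. The arsenic coefficient was 1.89 (SE 0.748, edgeR adjusted p 0.353) and the caffeine coefficient 2.22 (SE 0.731, edgeR adjusted p 0.359).

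ABCB1, the multidrug pump P-glycoprotein, was lowest in the control. Its levels were 21.3 CPM there, 93.6 with acetaminophen, 44.6 with exosomes, 45.9 with acetaminophen and exosomes, 112 with caffeine and 154 with acetaminophen and caffeine. In the arsenic libraries it was at 40.1 CPM at 5 µM, 110 at 15 µM and 27.5 with copper. The high libraries were acetaminophen, both caffeine libraries and arsenic 15 µM, so the arsenic libraries overlapped the rest. Arsenic 5 µM stood at 1.88 times the control (interval 1.17 to 3.15), or 1.24 times with the GC and length trends removed. With copper the ratio was 1.29 (0.794 to 2.18). Arsenic 15 µM stood at 5.15 times the control (interval 3.34 to 8.34) and at 2.74 times arsenic 5 µM (2.16 to 3.49), or 3.91 times with the trends removed. Its extra term was 1.7 (SE 0.759, edgeR adjusted p 0.372).

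Acetaminophen put ABCB1 at 4.4 times the control (interval 2.79 to 7.25), a ratio of 2.64 with the trends removed. The ratio was 1.03 on the exosome background (0.695 to 1.49) and 1.38 on caffeine (1.25 to 1.52). Caffeine put it at 5.25 times the control (3.45 to 8.42) and at 1.65 times when added to acetaminophen (1.37 to 1.99), or 2.62 with the trends removed. The additive arsenic coefficient was 0.67 (SE 0.789, edgeR adjusted p 0.856), and without the control or arsenic 15 µM it was below 0 (-0.39 and -0.14).

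Summed per kilobase, the 4 pumps stood at 17.6 CPM per kb in the control and at 44.7, 58.7 and 52.1 in arsenic 5 µM, 15 µM and 5 µM with copper. The libraries without arsenic ranged from 17.4 to 48.1 CPM per kb, so caffeine (48.1) overlapped the arsenic range. ABCC2 made up 69.2%, 50.1% and 68.0% of this sum with arsenic and 59.7% in the control. In acetaminophen with caffeine it made up 12.2% and ABCB1 75.4%. ABCC1 held 2.67% (caffeine) to 15.2% (arsenic with copper) of the sum, and ABCC3 2.28% to 12.2%.

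**Figure D3:**
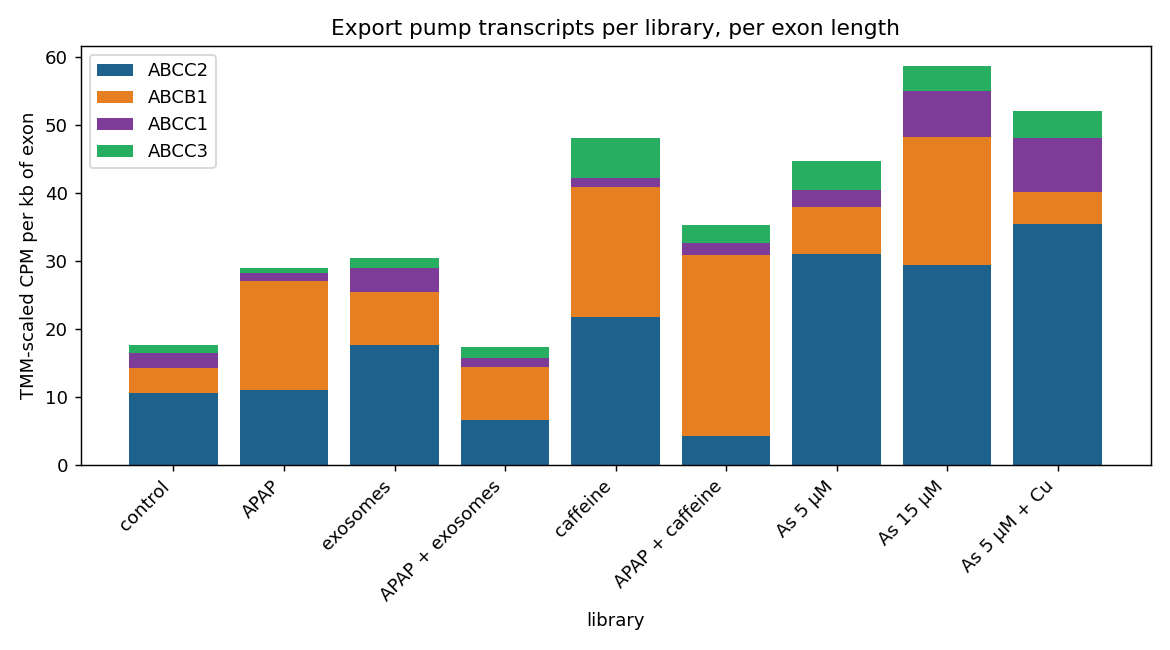
Export pump transcripts per library, as TMM-scaled CPM per kilobase of exon stacked by gene (bars start at 0). The arsenic libraries sum to 44.7, 58.7 and 52.1, the control to 17.6, and ABCB1 is the main part of acetaminophen with caffeine.

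Counted over the 8 members, the arsenic libraries differed in how many stood apart from the control, meaning a ratio of at least 2 either way with an interval that excludes 1. At 5 µM 2 were higher (ABCC2, ABCC3) and 1 lower (AHCY), where 31.4% of all genes were apart, and with the trends removed ABCC2 was not. At 15 µM 5 were higher (AQP3 and the 4 pumps) and 0 lower, where 30.8% of all genes were apart and 16.6% were higher. With copper 3 were higher (ABCC1, ABCC2, ABCC3), where 16.3% were apart and 9.34% higher. The medians of the members' log2 ratios were 0.13, 1.51 and 0.31, beside medians of 0.00, 0.00 and 0.03 over all genes. ABCC1, ABCC2, ABCC3 and ABCB1 were above the control in all 3 arsenic libraries, which held for 26.1% of all genes, and GSTO1 was below it in all 3, which held for 28.3%. Of these, ABCC1 at 5 µM (1.13, 0.641 to 2.06) and ABCB1 with copper (1.29, 0.794 to 2.18) had intervals that include 1. So did GSTO1 at 15 µM (0.864, 0.712 to 1.05) and with copper (0.908, 0.749 to 1.11). With trends removed these GSTO1 ratios were above 1 (1.29 and 1.37). These comparisons share the control library, which has 951816 counts. There the members held 5 (AQP3) to 493 (AHCY) counts, and none of the shares over all genes was matched on counts. The hepatocyte markers summed to 23290, 9355 and 15490 CPM in the arsenic libraries, in the order above, against 21700 CPM in the control. Of these 10 markers 6, 7 and 2 were counted as lower, in the same order, and 0 as higher. Their median log2 ratios were -1.29, -1.35 and -0.72. Over all genes 14.8%, 14.2% and 7% were lower. The part of these markers in the members' values was not tested.

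**Figure D4:**
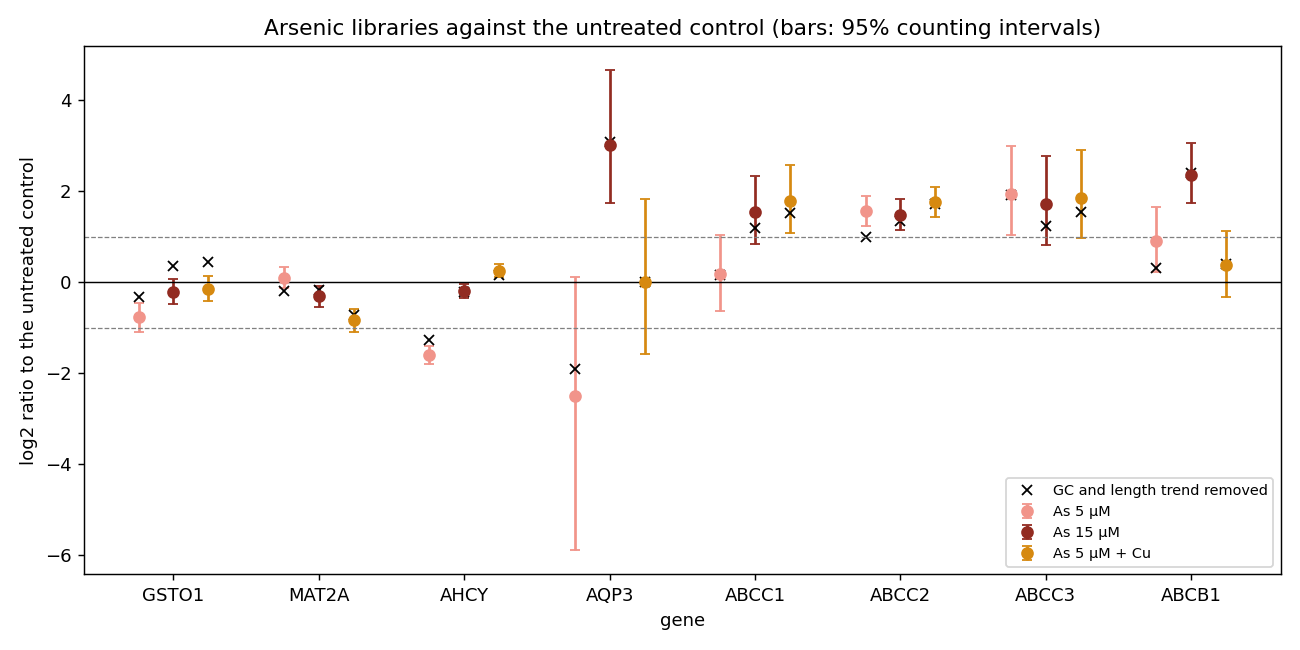
Log2 ratio of each arsenic library to the untreated control for the 8 members, with 95% counting intervals as bars and crosses for the ratio with GC and length trends removed (dashed lines at a ratio of 2 either way). The 4 pumps lie above 0 in each arsenic library, and AQP3 runs from 0.176 times the control at 5 µM (0.266 with trends removed) to 8.1 times at 15 µM. The bars of ABCC1 at 5 µM and of ABCB1 with copper cross 0.

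Higher dose and added copper were also set against arsenic 5 µM. At 15 µM 4 members were higher (AQP3, ABCC1, ABCB1, AHCY), where 37.1% of all genes were apart and 19.6% higher. With the trends removed 2 were (AQP3, ABCB1), for which no share of all genes is given. With copper 3 were higher (AQP3, ABCC1, AHCY), where 30.3% were apart and 16.6% higher, AQP3 from 2 counts against 13. With the trends removed AQP3 (ratio 3.34) was no longer counted as apart, and AHCY moved from 3.63 to 2.37. ABCC1 stood at 2.6 times arsenic 5 µM at the higher dose (interval 1.85 to 3.71; 1.88 with trends removed) and 3.05 times with copper (2.19 to 4.33; 2.27 with trends removed). The edgeR test of the copper term called 0 genes (428 at an unadjusted p under 0.05, and 0 by DESeq2).

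The additive edgeR model called none of the 8 members for arsenic, where 0.494% of all genes passed, nor for acetaminophen (0.0219%), caffeine (0.0823%) or exosomes (0%). At an unadjusted p under 0.05 stood 2 members for arsenic (AQP3, ABCC3; 9.17% of all genes), 3 for acetaminophen (GSTO1, AQP3, ABCC2; 5.34%), 1 for caffeine (ABCC3; 7.31%) and 0 for exosomes (0.62%). For exosomes, 113 genes did so and DESeq2 called 0. The medians of the member coefficients were 0.74, -0.52, 0.53 and 0.10, beside 0.07, -0.04, 0.12 and 0.08 over all genes.

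Outside arsenic, acetaminophen set 1 member apart from the control (ABCB1 higher), where 25.2% of all genes were apart and 13.1% higher. Exosomes set 1 apart (ABCB1 higher), where 5.12% were apart, 3.72% higher and 1.4% lower. Caffeine set 3 apart (ABCC2, ABCC3 and ABCB1 higher), where 20.5% were apart, 12% higher and 8.48% lower. The caffeine ratio of ABCC2, 2.07, was under 2 in each alternative, at 0.87 on the log2 scale with DESeq2 size factors, 0.96 with scaling over protein-coding genes and 0.97 with trends removed. With DESeq2 size factors ABCC1 was counted as lower (-1.01). The exosome ratio of ABCB1 was 2.1 (interval 1.33 to 3.44) and fell under 2 with another scaling or with trends removed (1.84). Acetaminophen set 4 members apart on exosomes (AQP3 higher, and ABCC1, ABCC2 and MAT2A lower; 10.5% apart and 5.14% higher) and 4 on caffeine (AQP3 higher, and GSTO1, ABCC2 and ABCC3 lower; 25.6%). Added to acetaminophen, exosomes set 2 apart (AQP3 higher, ABCB1 lower; 19.2% apart and 9.03% lower) and caffeine 5 (AQP3, ABCC3 and AHCY higher, GSTO1 and ABCC2 lower; 33.8% apart and 19% higher). ABCB1 was not counted as lower in the first of these pairs with either other scaling or with trends removed. With the trends removed the last pair had 5, with ABCB1 (2.62) in place of ABCC2 (0.52).

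Other genes of the pathway were taken from lists and are given for arsenic. Of 11 other uptake carriers 9 were tested and 0 passed. SLC2A1, a glucose carrier, stood at 53.2 CPM in the control and 58.4, 140 and 121 CPM in arsenic 5 µM, 15 µM and 5 µM with copper (log2 coefficient 1.38, SE 0.682, edgeR adjusted p 0.546). The phosphate carrier SLC20A1 was at 151 and 76.3, 287 and 160 CPM, and its homologue SLC20A2 at 76.4 and 44.4, 116.5 and 101.8 CPM. AQP10, another aquaglyceroporin, was at 41.5 CPM with caffeine and at 0 to 3.4 CPM in the other 8 libraries.

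All 24 genes of reduction and glutathione conjugation were tested and 0 passed for arsenic. GCLM, a subunit of the enzyme that starts glutathione synthesis, was at 31.9 CPM in the control and 519, 263 and 167 CPM with arsenic (2.78, SE 0.81, edgeR adjusted p 0.121). MGST2, a microsomal glutathione transferase, was at 94.8 against 7.25, 10.1 and 14.5 CPM (-2.59, SE 0.676, edgeR adjusted p 0.0677), and MGST3 at 24.2 against 2.98, 5.75 and 6.69 CPM. Thioredoxin reductase TXNRD1 was at 335.7 against 2320, 4682 and 2016 CPM. Of 18 methionine and folate cycle genes 0 passed. CTH, which makes cysteine from cystathionine, was at 9.68 against 37.5, 258 and 66.9 CPM (3.48, SE 0.867, edgeR adjusted p 0.0515), and the mitochondrial folate enzyme gene MTHFD2 at 63.9 against 729.6, 488 and 178 CPM. SHMT2, which makes glycine in mitochondria, was at 267 against 684, 616.6 and 640.4 CPM, and the cytosolic MTHFD1 at 85.2 against 46.1, 21.6 and 65.4 CPM. The median coefficient was 0.34 for the conjugation list and 0.55 for the cycle list, beside 0.07 over all genes.

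Of 15 other methyltransferases that use S-adenosylmethionine 14 were tested and 0 passed (median -0.60). HNMT, the histamine methyltransferase, was at 64.8 CPM in the control and 25.6, 8.27 and 13.8 CPM with arsenic (-2.59, SE 0.748, edgeR adjusted p 0.12). The coefficients of DNMT3A, METTL7B and GAMT were -1.45, -0.93 and -0.71. The 10 other ABC pumps had a median of -0.06 and 0 passed. ABCC5 was at 41.6 CPM in the control and 83.6, 76.9 and 123 CPM with arsenic, ABCC4 at 19.4 against 67.4, 30.2 and 43.1 CPM. ABCC6 was at 61.0 against 38.4, 21.6 and 62.1 CPM, and ABCG2 at 11.6 against 17.9, 12.2 and 11.5 CPM. Their coefficients were 1.21, 0.40, -0.46 and -1.29, set against an untreated level that the model fits from all libraries without arsenic. For ABCG2 the coefficient was below 0 although its levels with arsenic were near or above the control. Its lowest levels were 3.83 CPM in acetaminophen with exosomes and 1.13 CPM in acetaminophen with caffeine. Of 15 regulators 14 were tested and 0 passed for arsenic, while MAFF, a small partner protein of NRF2, rose in the 15 µM extra term (3.39, edgeR adjusted p 0.00361; 20.3 CPM in the control and 14.1, 314 and 45.7 with arsenic). Without arsenic 5 µM this call was lost (2.8, edgeR adjusted p 0.18). MAFG, another such partner, was at 28.1 against 69.9, 331.5 and 144.9 CPM, and the hepatocyte factor HNF4A at 409.3 against 199.6, 151.7 and 231.2 CPM. Pregnane X receptor NR1I2, which acts on ABCB1 and ABCC2, was at 2.9 against 15.8, 18.3 and 27.5 CPM. Its control level is the 3-count floor of that library, and it did not pass for arsenic (2.46, SE 0.956, edgeR adjusted p 0.339). Of the 8 NRF2 reference targets, HMOX1 (7.14, SE 1.12, edgeR adjusted p 0.00208) and SLC7A11 (4.09, SE 0.828, edgeR adjusted p 0.0141) rose with arsenic, and the median was 2.72. Both calls were lost without the control, without acetaminophen, without acetaminophen with exosomes and with the control and arsenic libraries alone. SLC7A11 was also lost over protein-coding genes (edgeR adjusted p 0.083). Over 14 alternatives the coefficients were 6.57 to 8.53 for HMOX1 (adjusted p up to 0.664, edgeR) and 3.81 to 4.44 for SLC7A11 (up to 0.762). NQO1 of the same list did not pass for arsenic (-0.14, SE 0.815, edgeR adjusted p 0.986). It stood at 601.8 CPM in the control and 860.5, 489 and 1116 CPM with arsenic. With caffeine NQO1 fell to 44.8 CPM (-4.77, SE 0.912, edgeR adjusted p 0.0217). That call was lost in 6 of 14 alternatives, each without 1 of the libraries that had no arsenic (-5.62 to -3.95, edgeR adjusted p up to 0.747). Of the 10 hepatocyte markers 0 passed (median -1.14; FGB -1.93, TTR -1.52, HNF4A -1.41 and APOA1 -1.35), and of the 13 markers of other liver cells 7 were tested and 0 passed (median -0.35).

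The genes most like each member were sought by Pearson's r of log2 levels over the same 9 libraries, which share depth and composition, among 10981 genes of at least 5 CPM on average. They were GPRIN1 (r 0.949), SKI and PPP1R13B for AQP3, RPUSD4 (0.948), KIAA1522 and TCF12 for ABCC2, and CSTF2 (0.949), AKR1C2 and HCFC1 for ABCC1. ABCC3 was most like SBNO2 (0.939), ZNF496 and AJUBA, and ABCB1 most like ZNF136 (0.962), OFD1 and DNAJC3. For GSTO1 they were CEACAM1 (0.968), UTP25 and RPF2, for AHCY SLC12A9 (0.979), YJU2B and NAA38, and for MAT2A RSPRY1 (0.903), TRIM27 and ZNF41. The genes named had the highest r of 10981 over 9 libraries, so this selection by itself favours high values. Shared regulation was not tested.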

How the data were processed

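Each library's file, as deposited by the authors, holds raw counts for Ensembl genes and HTSeq's summary lines; per the submitters' processing notes the tools were TopHat2 2.0.13 and HTSeq 0.6.1 and the build GRCh37. Of annotation release, strand setting and counting mode, none is given in the sources used here. The 5 summary lines, 42.3% to 70.3% of reads, were left out of library sizes. Reads are PCR reads without molecular identifiers, so intervals cover counting error only.

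Names came from gene tables and GENCODE 29 (52526 of 63677 identifiers), which also gave exon length, GC content and overlaps, with no coordinates. Members and lists were chosen with earlier results of these data known.

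An additive edgeR quasi-likelihood model (acetaminophen, exosomes, caffeine, arsenic; TMM; 4 residual degrees of freedom) was fitted to 18237 genes, with arsenic 15 µM and copper each as an extra term (3 degrees). Calls are Benjamini-Hochberg adjusted p under 0.05 over all genes. The p-values measure departures from this model, not replicate spread. Arsenic is coded as present or absent, so without an extra term the differences of dose and copper among the arsenic libraries are part of that spread. Each gene's spread is also drawn towards that of other genes, with a weight of 32.4 degrees of freedom (median, additive model). The SE is the absolute coefficient over the square root of F. For 12 library pairs, ratios have exact conditional binomial 95% intervals, and calls use 0.5 prior counts. Trends are splines with 4 degrees of freedom. Zero counts are bounded at 3 counts. Alternatives were DESeq2 and its size factors, no filter, protein-coding genes, single libraries left out, subsets, trend removal and a ratio of 1.5. Those of the 4 called list genes were added after seeing the data. All 10 members were named, up to 4 genes per list by arsenic coefficient at a mean of at least 5 CPM plus called genes, and the 3 genes most like each member.

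Software was R 4.3.3, edgeR 4.0.16, limma 3.58.1, DESeq2 1.42.0, Python 3.11.15, matplotlib 3.10.9, pandas 2.3.3, scipy 1.17.1 and numpy 2.4.6. The model was tested on simulated data.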

Additional observations from a re-analysis of the deposited data

Results flagged for a closer look

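AQP3 differed between arsenic doses in the edgeR test of the extra 15 µM term (3.74 on the log2 scale, adjusted p 0.00507), from 0.853 and 4.83 CPM in the 5 µM libraries to 39.2 CPM at 15 µM. The call was lost with DESeq2 (adjusted p 0.0809) and without arsenic 5 µM (3.03, edgeR adjusted p 0.225). Without arsenic with copper the coefficient was 5.46 (edgeR adjusted p 0.00106).

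ABCB1 moved in opposite directions with exosomes, at 2.1 times the control and at 0.49 times acetaminophen when added to it. This difference was not tested, and with GC and length trends removed the ratios were 1.84 and 0.784, neither of which counts as apart.

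ABCC2 moved in opposite directions with caffeine, at 2.07 times the control and at 0.392 times acetaminophen when added to it. This difference was not tested, and with the trends removed the ratios were 1.96 and 0.52, neither of which counts as apart.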

How the results depend on the processing

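Each condition is 1 library and no result has a replicate check. The shallow control and acetaminophen with exosomes libraries limit the precision for AQP3, ABCC1 and ABCC3 most. No paired analysis was possible by replicate number, because each condition has 1 library and the labels carry no such numbers. The pairs with and without acetaminophen enter the additive model through its exosome and caffeine terms.

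Counts of genes called depended on the settings. For arsenic the 90 calls became 24 with DESeq2 size factors (16 higher and 8 lower, against 62 and 28), 269 with no count filter, 170 by DESeq2, 1 over protein-coding genes and 0 with the control and the arsenic libraries alone. For acetaminophen the 4 calls became 46 with no filter, 49 by DESeq2, 2 over protein-coding genes and 249 over the libraries without arsenic. For caffeine the 15 calls became 7 with DESeq2 size factors (0 higher and 7 lower, against 4 and 11), 49 with no filter, 51 by DESeq2, 3 over protein-coding genes and 292 without the arsenic libraries. For exosomes 0 became 3 without the arsenic libraries. The 198 calls for arsenic 15 µM became 96 by DESeq2.

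With 1 library left out at a time, calls ranged from 0 to 780 for arsenic, 0 to 179 for acetaminophen, 0 to 222 for caffeine and 0 to 3 for exosomes. The highest arsenic, acetaminophen and caffeine counts came without arsenic 5 µM. In an alternative added after seeing the data, calls ranged from 17 to 775 for arsenic 15 µM (17 without arsenic 5 µM, 775 without arsenic with copper) and from 0 to 52 for copper. The cause was not tested.

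Of the 14 member coefficients followed, the signs of 3 turned in the arsenic term. AHCY was -0.4 with the control and the arsenic libraries alone and -0.33 to 1.12 with 1 library left out, ABCC2 -0.34 to 1.66 and ABCB1 -0.39 to 1.53.

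Members apart in a pair changed as follows. A ratio of 1.5 in place of 2 gave 3 for acetaminophen, 2 for exosomes and 5 for arsenic 5 µM against the control, 5 for acetaminophen with exosomes against acetaminophen and 5 for arsenic with copper against arsenic 5 µM. No share of all genes is given for a ratio of 1.5 or for the settings that follow. These counts of members therefore cannot be set against those of other genes. Exosomes against the control gave 0 with DESeq2 size factors, with scaling over protein-coding genes and with trends removed. Acetaminophen with exosomes against acetaminophen gave 1 with scaling over protein-coding genes and 1 with trends removed, and arsenic 15 µM against 5 µM gave 2 with trends removed. DESeq2 size factors shifted all log2 ratios of a pair by -0.176 to 0.149. Of 96 member ratios, 93 stayed within their intervals with these factors, 96 with scaling over protein-coding genes and 63 with trends removed. None of the ratios counted as apart changed direction under these 3 settings. ABCC2 as the 1 member with all arsenic libraries above the others held under both other scalings. This was not examined with trends removed, where the ABCC2 ratios of arsenic 5 µM and caffeine to the control were 2.0 and 1.96.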

Other observations

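Among the members, log2 levels over the 9 libraries ran most closely together for GSTO1 and ABCC2 (Pearson's r 0.704), AQP3 and AHCY (0.697) and ABCC1 and ABCC2 (0.661), and most oppositely for GSTO1 and ABCB1 (-0.575). These are descriptions over libraries that share depth and composition effects. GSTO1 and ABCC2 both had their lowest level in acetaminophen with caffeine (24.4 and 33.6 CPM), where AQP3, AHCY and ABCB1 had their highest (43.5, 1140 and 154 CPM). That library held 5430432 counts on genes.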
